A study of Nicotiana tabacum with 78 samples.

Results

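The topping response of PMT1 roots was read from the authors' group means of RPKM (reads per kilobase of gene model, scaled to the mapped reads of a library) for topped and untopped roots of the tobacco line PMT1. A gene was a member where it reached 1 RPKM in either PMT1 root group, and 1988 of the 2075 genes in the deposited table did. For each, the log2 fold was taken as the log2 ratio of topped to untopped RPKM after 0.1 RPKM was added to both. PMT1 (06TN2046) is a transgenic line of the Burley cultivar TN90 in which putrescine N-methyltransferase (PMT) is targeted by RNA interference from the constitutive 35S promoter. Topped PMT1 plants had the flowering top cut off and gave roots a day later, while untopped PMT1 plants kept it. All were grown in pots in a greenhouse to flowering, with 5 topped and 5 untopped root samples labelled as separate biological replicates, so that both groups carry the silencing construct and PMT1 stands for 1 line. PMT2 and PMT3, which are other lines of the same kind, and untransformed TN90 were grown and topped in the same study and are used here only to set PMT1 values against. In PMT2 and PMT3 some leaf and root samples with the same title number carry opposite topping labels. Whether the root means of these lines mix topped and untopped plants is unknown.

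Topping is the removal of the flowering head, a field practice that releases side shoots and raises alkaloid synthesis in tobacco roots. Nicotine joins a pyrrolidine ring, made from ornithine by way of putrescine and N-methylputrescine, to a pyridine ring derived from nicotinic acid. PMT makes N-methylputrescine, the first step that commits putrescine to the pyrrolidine ring, and anatabine, another tobacco alkaloid, is built from the pyridine branch without it. Jasmonate signalling turns on many of these genes in roots after wounding.

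The PMT1 root libraries held 30.5, 46.1, 54.2, 51.6 and 42.5 M reads (M, 1000000) in topped roots, against 115.1, 60.3, 27.6, 35.6 and 56.7 M in untopped roots. The mapped share averaged 84.5% ± 3.20 in topped and 83.0% ± 2.02 in untopped libraries (SD, n = 5 each), and the ranges overlapped (80.6 to 88.1% and 79.5 to 84.7%, exact permutation test, two-sided, p = 0.397, 0.762 after Benjamini-Hochberg adjustment over 3 measures). Reads in gene models averaged 88.1% ± 3.85 and 88.4% ± 6.09 of the mapped reads in topped and untopped libraries (exact p = 0.929, adjusted 0.929), and read counts averaged 45.0 ± 9.28 and 59.0 ± 34.2 M reads (exact p = 0.508, adjusted 0.762). The smallest p that 5 against 5 allows is 0.00794. At these depths 1 RPKM over a gene of 1 kb stands for 23.2 to 91.5 reads in a library. The gene values have no such replicates: each is the authors' mean over a group, so every fold below is a description with no SD and no p, and a mean of 5 can be carried by 1 library. As a tissue check, 16 genes of photosynthetic proteins summed to 178 and 199 RPKM in topped and untopped PMT1 roots, against 3681 and 4140 RPKM in topped and untopped PMT1 leaves. Not every gene of the 16 followed the sum. NITAB045656 had 7.23 and 2.75 RPKM in topped and untopped roots and 0.334 and 0.0211 RPKM in leaves. NITAB010977 and NITAB060686 were also higher in roots, the latter with 9.04 and 5.27 RPKM against 3.52 and 4.71 RPKM in leaves. The 4 BBL genes summed to 166 and 37.2 RPKM in topped and untopped roots and to 0.221 and 0.164 RPKM in leaves. The 5 PMT genes summed to 53.9 and 69.4 RPKM in roots and to 3.76 and 2.28 RPKM in leaves.

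Topped PMT1 roots were higher by at least 2-fold for 439 genes and lower for 79, and 1470 lay between. These are 22.1% and 3.97% of the genes compared. Its rows are a selection that the authors made by calling genes in root comparisons, topping in PMT1 among them, so neither share describes the tobacco genome. Of the 439 genes, 97 were at least 4-fold and 27 at least 8-fold higher, and of the 79 genes 13 and 3 were lower by as much. The median log2 fold over the 1988 genes was 0.47, with quartiles at -0.21 and 0.95, and 1308 genes lay above 0. When this median was set to 0, the split became 208 higher and 284 lower, so a fold near 2 is best read beside the median.

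**Figure D1:**
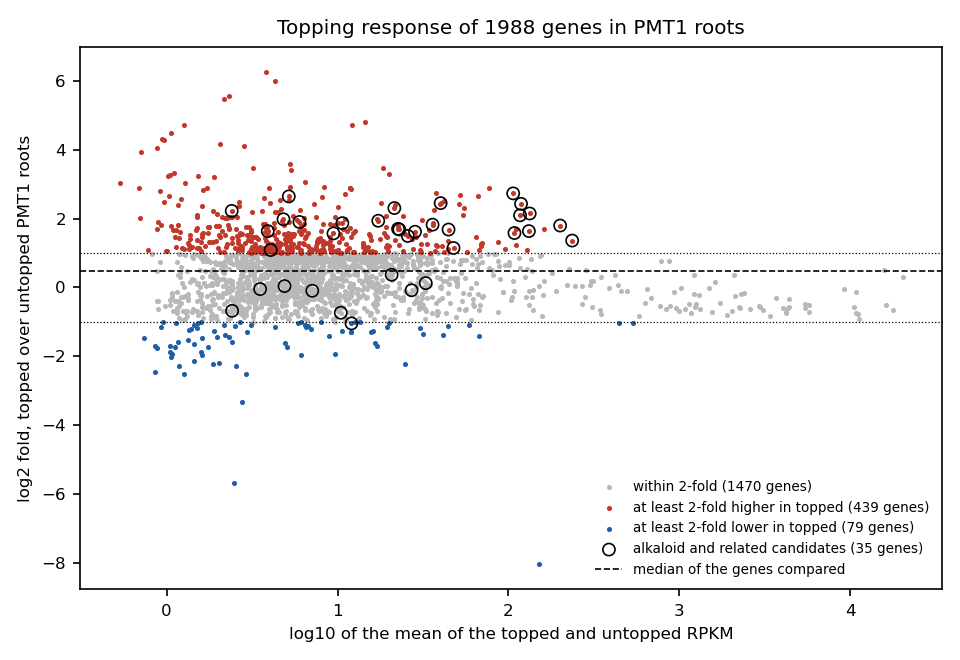
Each point is a gene of the PMT1 root comparison, with the log10 of its mean RPKM on the horizontal axis and the log2 fold of topped over untopped on the vertical axis. Dotted lines mark 2-fold, the dashed line marks the median of 0.47, circles mark the 35 candidate genes, and the genes at 1000 RPKM or more on the right lie mostly below 0.

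The shift had a counterpart among the most abundant transcripts. The 53 genes that reached 1000 RPKM in either group summed to 209561 RPKM in topped and 272707 RPKM in untopped PMT1 roots, which is 83.5% and 88.7% of the column sums of the table. Of these 53 genes 47 lay at or below 0 on the log2 scale, with a median log2 fold of -0.57, none passed 2-fold, and 32 had no Swiss-Prot or tomato match. RPKM is a share of the reads, so a change in these genes moves the values of the others, and the part this played was not tested. The 5 highest genes of topped PMT1 roots were NITAB041930 (22528 RPKM in topped and 18159 in untopped roots), NITAB093099, which carries the name of a clathrin coat assembly protein (18462 and 13092), NITAB099302 (13835 and 21834), NITAB029803 (13404 and 19070) and NITAB018472 (10365 and 11369). Both directions occur among them.

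The targeted PMT genes did not reach a 2-fold increase on topping in PMT1 roots. NITAB020971 had 26.4 RPKM in topped and 27.9 RPKM in untopped roots, NITAB068130 had 6.88 and 7.35, and NITAB020972 had 4.97 and 4.82 (log2 folds of -0.08, -0.10 and 0.04). NITAB068134 had 7.82 RPKM in topped and 13.1 in untopped roots (log2 fold -0.73), and NITAB068133 had 7.86 and 16.3 (log2 fold -1.04), the single candidate gene past 2-fold downwards. In TN90 roots the same 5 genes were all higher on topping, with log2 folds of 2.92 to 3.75, and NITAB020971 there had 276 RPKM in topped and 36.5 RPKM in untopped roots. The PMT genes of the other silenced lines lay between, with log2 folds of 0.51 to 1.66 in PMT2 and 0.92 to 2.09 in PMT3 roots. Over the 5 genes topped PMT1 roots held 53.9 RPKM and untopped ones 69.4. These differences between genotypes were not tested, since the table has no values per library. PMT copies are similar to each other and reads were allowed several places, so values of single PMT genes may share reads.

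The rest of the pyrrolidine branch was higher in topped PMT1 roots, apart from spermidine synthase. Ornithine decarboxylase, which makes putrescine, had 56.2 RPKM in topped and 15.8 RPKM in untopped roots at NITAB012942, and 68.1 and 21.2 RPKM at NITAB023946, with log2 folds of 1.82 and 1.68. The amine oxidase genes that the study takes as probable N-methylputrescine oxidase (MPO), the enzyme after PMT, had 42.9 and 13.9 RPKM (NITAB041830), 35.1 and 10.9 RPKM (NITAB056529) and 38.1 and 13.5 RPKM (NITAB056530) in topped and untopped roots. Their log2 folds were 1.62, 1.68 and 1.495, so the 3 genes moved closely together. Spermidine synthase, which draws on the same putrescine and is related to PMT in sequence, stayed within 2-fold, with 34.3 and 31.4 RPKM at NITAB055952, 23.4 and 18.1 at NITAB041017 and 3.47 and 3.58 at NITAB026467 in topped and untopped roots. S-adenosylmethionine synthase, which makes the methyl donor of PMT, had 340 and 132 RPKM at NITAB038231 and 65.8 and 29.7 RPKM at NITAB004477 (log2 folds 1.36 and 1.15). The polyamine transporter PUT1 (NITAB002823) had 5.56 and 2.56 RPKM in topped and untopped roots.

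Of the MPO genes, NITAB041830 and NITAB056529 are near-identical over their aligned bases, which may bear on how their reads were counted. The study assigns the sequence MPO-S to NITAB041830 and MPO-T to NITAB056529, and its supplement gives both. The first 90 bases of MPO-S and the matching stretch of MPO-T, at bases 244 to 333, are shown 5′ to 3′ with the bases that differ in capitals.
MPO-S: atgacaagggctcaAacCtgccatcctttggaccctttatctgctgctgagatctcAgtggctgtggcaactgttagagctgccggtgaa
MPO-T: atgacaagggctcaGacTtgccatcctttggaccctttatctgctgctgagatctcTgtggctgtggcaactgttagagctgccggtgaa
Here 3 bases differ. Over 2262 aligned bases, with 148 gap columns inside left out, the copies were 97.8% identical. Of all windows of 100 aligned bases 96.0% were at least 95% identical, which is the similarity at which the authors let a read match. A read from one copy can therefore reach that similarity on the other, though it may match its own copy better. NITAB056530 was not among the sequences compared. How far shared reads bear on the closeness of the MPO folds was not tested.

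The pyridine branch was higher on topping at every candidate gene. Aspartate oxidase, the first enzyme of the branch, had 190 and 44.4 RPKM at NITAB045325 and 217 and 49.0 RPKM at NITAB079852 in topped and untopped PMT1 roots (log2 folds 2.09 and 2.15). Both carry the Swiss-Prot name of a succinate dehydrogenase flavoprotein. Quinolinate synthase had 199 and 64.1 RPKM at NITAB063722 and 163 and 54.3 RPKM at NITAB074182, and quinolinate phosphoribosyltransferase, which turns quinolinate into a nicotinate nucleotide, had 312 and 89.6 RPKM at NITAB041007 (log2 folds 1.64, 1.58 and 1.80). The genes the study lists as AD, named isoaspartyl peptidase or L-asparaginase, were lower in level, at 14.2 and 4.72 RPKM (NITAB013732) and 9.50 and 2.47 RPKM (NITAB023723). Ribose-phosphate pyrophosphokinase makes the phosphoribosyl donor that quinolinate phosphoribosyltransferase uses, and its 3 genes in the table were also past 2-fold, led by NITAB025187 with 9.60 RPKM in topped and 2.69 RPKM in untopped roots (log2 fold 1.80).

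Genes of the late steps were also past 2-fold upwards. A622, a reductase needed for nicotine and related alkaloids, had 185 RPKM in topped and 27.9 RPKM in untopped roots at NITAB013664, and 200.05 and 37.1 RPKM at NITAB026459 (log2 folds 2.73 and 2.43). The berberine bridge enzyme-like genes (BBL), whose products act in the last oxidation and which carry the Swiss-Prot name reticuline oxidase, had 67.9 and 12.4 RPKM at NITAB049634, 35.8 and 7.17 at NITAB035592, 34.6 and 10.6 at NITAB072154 and 27.5 and 7.12 at NITAB035568. Their log2 folds were 2.45, 2.30, 1.70 and 1.94. In PMT2, PMT3 and TN90 roots both A622 genes were also past 2-fold, with log2 folds of 1.95, 3.56 and 3.42 at NITAB013664.

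The P450 candidates were lower in level. The genes named 71D7 had 9.01 and 1.36 RPKM (NITAB053665) and 16.8 and 4.54 RPKM (NITAB002110) in topped and untopped roots. Those named 94C1, a family that in Arabidopsis oxidises the active jasmonate, had 7.76 and 1.89 RPKM (NITAB012119), 5.96 and 1.85 (NITAB017325) and 4.02 and 0.783 (NITAB006704). CYP749A22 (NITAB055256) went with PMT: it had 1.84 RPKM in topped and 3.00 RPKM in untopped PMT1 roots, a log2 fold of -0.68, against 4.85 and 0.780 RPKM in TN90 roots, a log2 fold of 2.49.

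In all, 26 of the 35 candidates were past 2-fold upwards in PMT1 roots, 1 was past it downwards and 8 were neither. These are 74.3% upwards and 2.86% downwards, beside 22.1% and 3.97% over all genes compared. The median log2 fold of the 35 was 1.64. The study drew these candidates from the same libraries, so the count is not independent evidence. The candidates not past 2-fold upwards in PMT1 roots were those of PMT and spermidine synthase and CYP749A22. Leaving these out fixed in advance that the other 26 genes were all past 2-fold in PMT1 roots. Of these 26 genes, all were past 2-fold upwards in TN90 roots, 22 in PMT2 and 24 in PMT3 roots. Over all genes compared 47.3%, 12.7% and 27.9% were higher in TN90, PMT2 and PMT3 roots. The median log2 fold of the 26 was 1.81 in PMT1 roots, where they were picked. It was 1.33, 2.29 and 2.22 in PMT2, PMT3 and TN90 roots. After the median over all genes was set to 0, 23 of the 35 candidates were still past 2-fold upwards in PMT1 roots. In bulk roots, more cells of the types that make alkaloids and more RNA per cell cannot be told apart.

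**Figure D2:**
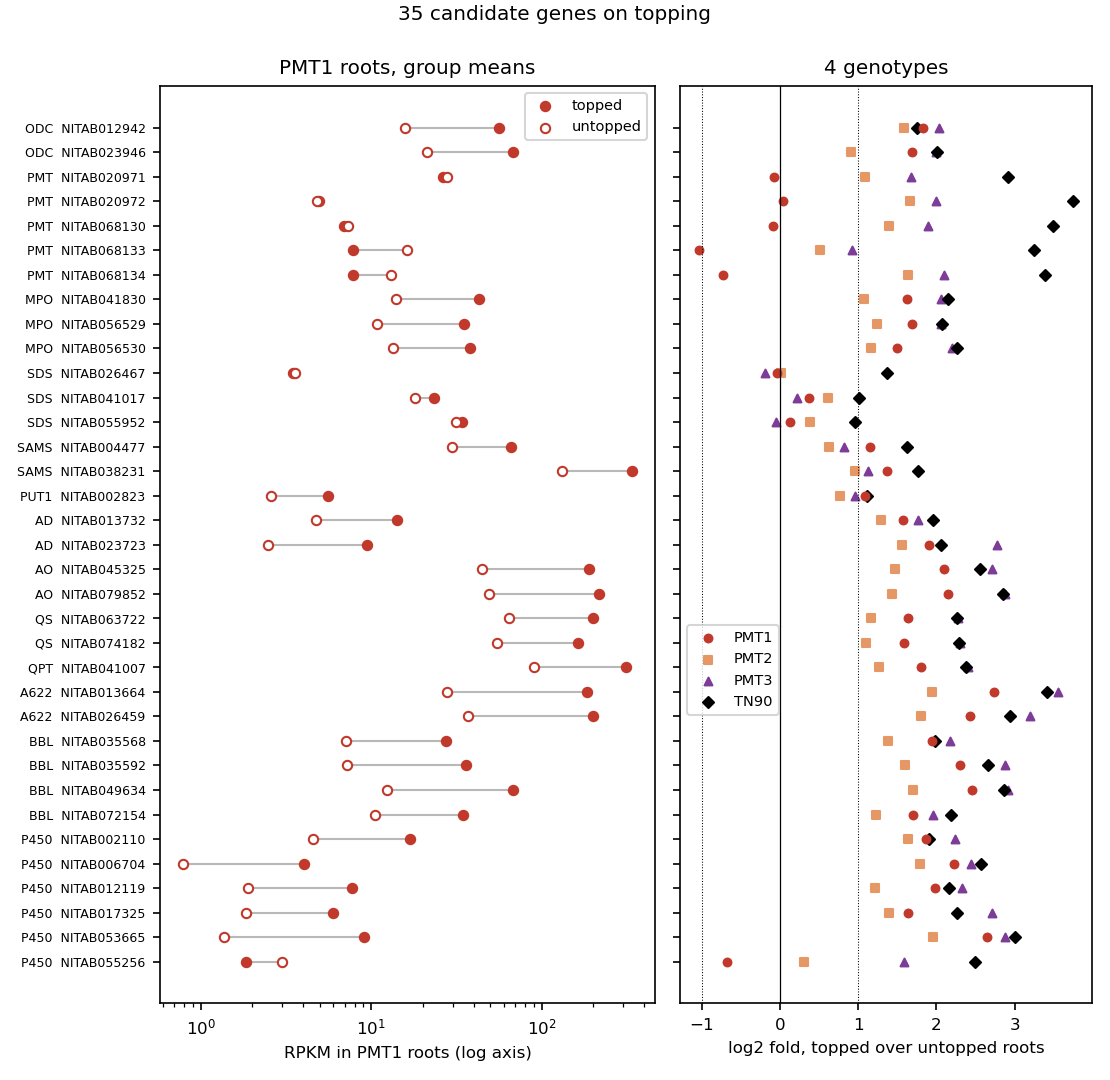
On the left, each row is a candidate gene with its group mean of RPKM on a log axis in topped (filled) and untopped (open) PMT1 roots; on the right, the log2 fold of topped over untopped roots in the 4 genotypes. The 5 PMT genes and CYP749A22 sit at or below 0.04 in PMT1 and at 2.49 or more in TN90, while the other steps apart from SDS lie right of the 2-fold line in PMT1.

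Several genes with identifiers next to those of pathway genes were also higher. NITAB013663 (a beta-glucosidase), the A622 gene NITAB013664, NITAB013665 (a MATE-type carrier named DETOXIFICATION 38) and the unnamed NITAB013666 had log2 folds of 3.30, 2.73, 2.67 and 4.10. The second A622 gene, NITAB026459, had near it another DETOXIFICATION 38 gene, NITAB026456 (91.6 RPKM in topped and 18.4 in untopped roots), and the unnamed NITAB026457 (9.83 and 0.730). Beside quinolinate phosphoribosyltransferase, NITAB041008 had 23.6 RPKM in topped and 0.798 RPKM in untopped PMT1 roots and NITAB041006 had 2.32 and 0.878. Unnamed genes next to BBL genes had almost the values of the BBL genes themselves, such as NITAB049635 with 66.7 and 12.4 RPKM. Of the 26 candidates that were higher, 11 had a gene with a consecutive identifier that was also higher, in 9 cases one that is no candidate. Among all 169 pairs of compared genes with consecutive identifiers, both were higher in 33, both lower in 2, and 1 gene was higher and the other lower in 3. The table gives no coordinates, so whether such models are parts of 1 gene, overlap or are merely adjacent was not tested.

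Among genes of at least 5 RPKM in either PMT1 root group, the largest folds were found outside the pathway and often in genes without a name. NITAB075284 had 7.58 RPKM in topped PMT1 roots and was listed at 0 in untopped ones. NITAB036366 had 8.53 and 0.0368 RPKM, NITAB068620 (a U-box protein, a type of ubiquitin ligase) 27.9 and 0.897, and NITAB041008 the values above. In PMT2 roots the first 3 of these had log2 folds of only 0.43, -0.16 and 0.28, with similar levels in topped and untopped roots (12.8 and 9.49, 8.68 and 9.71, 28.7 and 23.6 RPKM), so the untopped PMT1 means lay far below both PMT2 means. NITAB036366 had 831 and 633 RPKM in topped and untopped PMT1 leaves. NITAB084982 and NITAB084977 were higher in PMT1 and PMT2 (log2 folds of 3.46 and 3.46, and of 3.65 and 2.80), but at -0.83 and -1.27 in PMT3 and 0.10 and 0.26 in TN90 roots.

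The other named genes among the 15 largest increases at that level were past 2-fold in every silenced line. Extensins are structural cell wall proteins, and the extensin-like genes NITAB011370 and NITAB015057 had 9.88 and 0.843 RPKM and 11.6 and 1.31 RPKM in topped and untopped PMT1 roots. Kunitz trypsin inhibitor 2 (NITAB034145) had 9.36 and 1.15 RPKM, proteinase inhibitor I-B (NITAB075366) 14.9 and 1.89, and polyphenol oxidase F (NITAB001898) 20.8 and 2.71, all of them proteins of the wound response. The inhibitors had log2 folds of 2.93 and 2.91 in PMT1 but 0.42 and 0.21 in TN90 roots, a difference that was not tested. A fumarate hydratase gene (NITAB041029) had 7.12 and 0.868 RPKM, with log2 folds of 2.90 in PMT1 and 2.90 in TN90 roots.

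**Figure D3:**
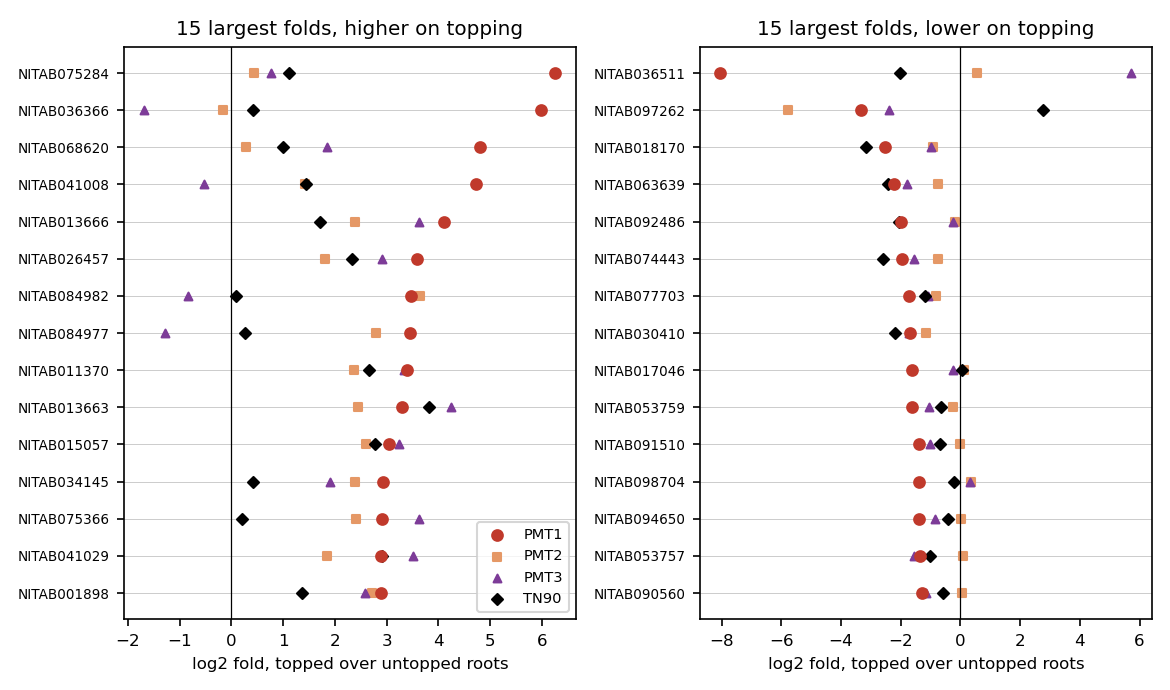
Log2 folds of topped over untopped roots in the 4 genotypes for the 15 genes most increased (left) and the 15 most decreased (right) in PMT1 roots among genes of at least 5 RPKM. PMT1 points are extreme by choice; the other genotypes lie on the same side for genes such as NITAB013663 and NITAB063639 and on the other side for NITAB036511 in PMT3 (5.73) and NITAB097262 in TN90 (2.75).

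The largest decrease was at a gene with a high untopped mean. NITAB036511, named for trichome birefringence-like 15, a family that acetylates wall polysaccharides, had 1.05 RPKM in topped and 300.5 RPKM in untopped PMT1 roots. In PMT2 roots it had 185 and 125 RPKM, in PMT3 roots 57.1 and 0.980 and in TN90 roots 2.94 and 12.3, so topped and untopped means of this gene follow no common order. NITAB097262 (0.418 and 5.07 RPKM), NITAB092486 (2.44 and 9.87) and NITAB017046 (2.37 and 7.51), which have no name, were likewise lower in topped PMT1 roots. Aluminum-activated malate transporter 2 (NITAB077703) had 2.30 RPKM in topped and 7.84 RPKM in untopped roots, with log2 folds of -1.73 in PMT1 and -1.19 in TN90.

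Genes of the dehydration response were lower as a list. Late embryogenesis abundant (LEA) proteins and dehydrins protect cells as water is lost. Of 23 genes under those names 8 were lower (34.8%, beside 3.97% over all genes), 1 was higher and 14 were neither. Their median log2 fold was -0.68 against 0.47 over all genes. In the wider list of abscisic acid and dehydration genes, which holds them, 8 of 33 were lower (24.2%) and 1 higher (3.03%). LEA protein Dc3 had 8.75 RPKM in topped and 41.1 RPKM in untopped PMT1 roots at NITAB063639 and 3.96 and 15.5 at NITAB074443, LEA D-7 (NITAB050339) had 0.303 and 2.21, and a dehydrin (NITAB020614) 0.661 and 3.38. Dehydrin Rab15 (NITAB030410) had 7.91 and 25.9 RPKM and was past 2-fold downwards in all 4 genotypes (log2 fold of -1.70 in PMT1 roots, and of -1.17, -1.73 and -2.20 in those of PMT2, PMT3 and TN90). The gene that was higher, NITAB068324, carries the name NDR1/HIN1-like and falls in the list by its tomato match. Galactinol and raffinose genes, which make protective sugars in drying tissue, had a median of -0.87 with 1 of 7 lower (14.3%). No aquaporin of 15 was past 2-fold upwards, and 2 were lower (13.3%), TIP1-2 (NITAB081747, 6.96 and 17.1 RPKM) and PIP2-1 (NITAB068908, 4.21 and 9.76).

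Small heat shock proteins, chaperones that hold unfolded proteins, were 7 lower (50%, beside 3.97% over all genes), 0 higher and 7 neither among 14 genes compared. In the wider list of heat shock proteins and chaperones, which holds them, 7 of 35 were lower (20%) and 2 higher (5.71%). NITAB053759 and NITAB053757, both of class II, had 8.10 and 25.2 RPKM and 17.7 and 45.6 RPKM in topped and untopped PMT1 roots. They had 4.62 and 47.5 RPKM and 11.7 and 65.7 RPKM in topped and untopped leaves of the same line. The unnamed NITAB091510, NITAB094650 and NITAB090560 had the same pattern, with log2 folds of -1.40, -1.39 and -1.30 in PMT1 roots and, for NITAB091510, 19.3 and 155 RPKM in topped and untopped leaves. In PMT2 roots these 5 genes had log2 folds of -0.26 to 0.09. NITAB028253, of class I, had a log2 fold of -1.96 in PMT1 but 3.02 in TN90 roots.

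Genes of jasmonate, the hormone of the wound response, had 10 of 21 past 2-fold upwards and 3 downwards (median log2 fold 0.99). These are 47.6% and 14.3%, beside 22.1% and 3.97% over all genes compared, but once the overall median was set to 0 the balance turned, with 3 higher and 5 lower. Those for its synthesis were led by allene oxide synthase 2 (NITAB023404, 2.02 RPKM in topped and 0.301 in untopped roots) and allene oxide cyclase 3 (NITAB030383, 31.3 and 7.36). JAZ repressors, which jasmonate itself induces, were higher at 7 of 8 genes, with 39.8 and 14.9 RPKM at NITAB085553 (TIFY 6a). With the median over all genes set to 0, none of the 8 was past 2-fold. The 3 genes that were lower are all named ERF094: NITAB018170 had 0.797 and 5.04 RPKM, NITAB076191 0.602 and 3.14 and NITAB035074 0.350 and 1.36 in topped and untopped roots. These ethylene response factors were also below 0 in TN90 roots, at a log2 fold of -3.16 for NITAB018170.

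Defence proteins that jasmonate is known to induce were higher too. Of 30 protease inhibitor genes 16 were past 2-fold upwards (53.3%) and 0 downwards (median log2 fold 1.06). Of 7 polyphenol oxidase genes 5 (71.4%) and 0 were (median 1.34), beside 22.1% and 3.97% over all genes compared. With the overall median set to 0, 10 protease inhibitor genes were higher and 3 lower, and 3 polyphenol oxidase genes were higher and 0 lower. Pathogenesis-related proteins and defensins, which answer to other signals as well, had 6 of 42 higher and 1 lower, a smaller share than the 22.1% over all genes, and their median of 0.43 turned to the other side of 0 once the overall median was removed.

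Auxin and cytokinin genes were higher at a larger share than the 22.1% over all genes, and ethylene genes were split. Of 16 auxin genes 8 were higher (50%) and 1 lower, or 3 and 2 once the overall median was set to 0, with 9.02 and 2.80 RPKM for GH3.5 (NITAB057793), which joins auxin to amino acids, and 6.57 and 1.92 for PCNT115 (NITAB078745). Of 6 cytokinin genes 3 were higher (50%), or 1 against 1 lower on that scale, a zeatin O-glucosyltransferase (NITAB097920, 5.99 and 1.21 RPKM) and the LOG enzymes NITAB006197 (5.62 and 2.22) and NITAB039710 (8.98 and 3.71), which release active cytokinin. Of 23 ethylene genes 5 were higher (21.7%, close to the 22.1% over all genes) and 6 lower (26.1%, beside 3.97%). Among them were ethylene-responsive transcription factor 2 (NITAB077801) at 5.23 and 1.08 RPKM and the receptor EIN4 (NITAB076230) at 0.398 and 1.71. No gibberellin gene of 4 passed 2-fold. Of 59 genes in the transcription factor list 15 were higher (25.4%, close to the 22.1% over all genes) and 8 lower (13.6%, beside 3.97%), with a median log2 fold of -0.11. With the overall median set to 0, 6 were higher and 20 lower. Among the higher was a bHLH gene named Lc (NITAB028818, 5.96 and 1.58 RPKM). The 3 ERF094 genes count among the lower genes of the jasmonate, ethylene and transcription factor lists alike, so the falls of these lists overlap.

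Beta-glucosidases, which cut glucose from bound metabolites, had the highest median of the lists with at least 5 genes compared, at a log2 fold of 2.45. Of the 7 genes 5 were past 2-fold upwards (71.4%, beside 22.1% over all genes). NITAB024780 had 135 RPKM in topped and 18.3 RPKM in untopped PMT1 roots, NITAB019290 had 71.4 and 12.6 and NITAB013663 had 36.4 and 3.62, all named beta-glucosidase 47, and coniferin beta-glucosidase (NITAB077611), known for releasing lignin precursors, had 6.88 and 1.18. Of 39 genes of other transporters 13 were higher (33.3%) and 1 lower (2.56%), beside 22.1% and 3.97% over all genes compared. With the overall median set to 0, 6 were higher and 5 lower. Transporter genes past 2-fold upwards include a lysine histidine transporter-like gene (NITAB096099, 2.76 and 0.458 RPKM), an organic cation transporter (NITAB006981, 14.1 and 3.89) and the sugar carrier SWEET16 (NITAB077975, 3.60 and 1.01). The amino acid transporter NITAB015460 had 4.35 RPKM in topped roots and was listed at 0 in untopped ones.

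Genes of the methyl cycle, which renews S-adenosylmethionine, all lay above 0, with a median log2 fold of 0.99. Of the 11 genes 5 were past 2-fold (45.5%, beside 22.1% over all genes). The methionine synthase genes NITAB056873 and NITAB068658 had 98.3 and 40.8 RPKM and 61.0 and 28.0 RPKM in topped and untopped roots. None of the 11 stayed past 2-fold once the overall median was set to 0.

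Cell wall lists lay mostly above 0, as did 65.8% of all genes compared, and their shares past 2-fold ranged from near the 22.1% over all genes upwards. Of 33 extensins and proline-rich proteins 16 were higher (48.5%) and 32 lay above 0 (median 0.99). Expansins, xyloglucan and pectin enzymes, which loosen the wall, had 16 of 56 higher (28.6%) and 1 lower (median 0.79), with expansin-like B1 genes NITAB002813 at 20.8 and 2.73 RPKM and NITAB053736 at 9.43 and 2.95. NITAB002813 had a log2 fold of 2.89 in PMT1 roots, but 0.10 in PMT2, 1.07 in PMT3 and 0.91 in TN90 roots. Of 60 genes for secondary wall and lignin 15 were higher (25%, a share near that over all genes) and 1, NITAB036511, lower, and 59 lay above 0. With the overall median set to 0, 5, 4 and 2 genes of the 3 lists were past 2-fold upwards. Cellulose synthase 9 (NITAB019877) had 3.62 and 1.03 RPKM and cinnamoyl-CoA reductase 1 (NITAB098433), a lignin enzyme, 47.2 and 19.5.

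Histone and cell division genes lay above 0 almost without exception, by small folds, and their shares past 2-fold upwards were below that over all genes. Over all genes compared 65.8% lay above 0 and 22.1% were past 2-fold upwards. Of 48 histone genes 47 lay above 0, though only 5 were past 2-fold (10.4%), with a median log2 fold of 0.82 and 651 RPKM in topped against 370 RPKM in untopped roots over the list. The highest fold was 1.34, at the histone H4 gene NITAB024858. Of 21 genes for cell division and microtubules 19 lay above 0 and 4 were past 2-fold (19.0%), such as the tubulin gene NITAB012546 at 37.8 and 17.3 RPKM and the kinesin NITAB061382 at 5.40 and 2.39. After the overall median was removed no histone and 1 cell division gene remained past 2-fold upwards.

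**Figure D4:**
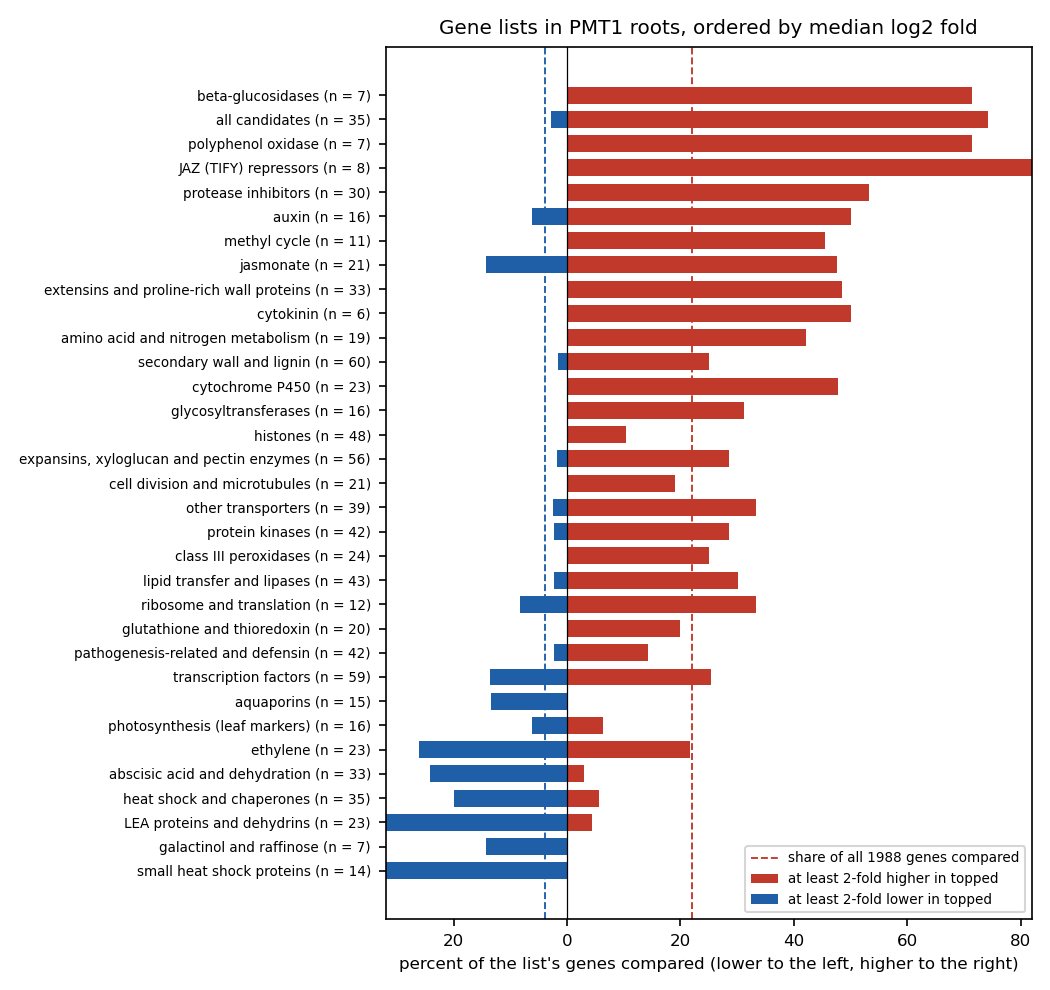
Percent of each gene list past 2-fold upwards (right) and downwards (left) in PMT1 roots, ordered by the median log2 fold, for lists with at least 5 genes compared. Bars of small heat shock proteins (50% lower), LEA proteins and dehydrins (34.8% lower) and JAZ repressors (87.5% higher) run past the axis and are cut. Dashed lines give the shares over all 1988 genes, 22.1% and 3.97%; beta-glucosidases and the candidates stand at the top, and LEA proteins, heat shock proteins and galactinol genes at the bottom.

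The other genotypes share no samples with PMT1 roots, and the overlap with their increases differed widely. Of the 439 genes higher in PMT1 roots, 357 were higher in TN90 roots (81.3% of the PMT1 list and 37.7% of the TN90 list), 272 in PMT3 roots (62.0% and 49.5%) and 196 in PMT2 roots (44.6% and 77.2%). In those comparisons 47.3%, 27.9% and 12.7% of all genes compared were higher. These shares rest on folds of group means alone. The paper's test on libraries, at p of at most 0.05 and 2-fold, called fewer genes on topping in TN90 roots than in each silenced line. In PMT1 roots that test called fewer genes than the 518 past 2-fold here. With the median of each comparison set to 0, 94 of the 208 genes higher in PMT1 roots were higher in TN90 roots. In all 3 of the genotypes 157 of the 439 were higher, and in none of them 46. The 79 genes lower in PMT1 roots overlapped less with the other lists, with 39 lower in TN90 (49.4% and 31.0%), 27 in PMT3 (34.2% and 22.3%) and 5 in PMT2 (6.33% and 8.33%), and 25 in none. Over all genes compared 6.3% were lower in TN90, 6.14% in PMT3 and 3% in PMT2 roots. No test was made of these differences between genotypes.

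The comparison with PMT1 leaves uses samples of the same plants. Of the 439 genes 26 were also higher in topped PMT1 leaves (5.92% of the root list and 37.1% of the 70 genes higher in leaves), and of the 79 genes 16 were lower there (20.3% and 19.0%). Of the 879 genes compared in PMT1 leaves 7.96% were higher and 9.56% lower. The root lists also hold genes below 1 RPKM in leaves, so 5.92% and 20.3% rest on another base than these shares. The 37.1% and 19.0% stand beside 22.1% higher and 3.97% lower among all genes compared in PMT1 roots. Kunitz trypsin inhibitor 2 (NITAB034145) was among the genes higher in both, with 267 RPKM in topped and 71.3 RPKM in untopped leaves.

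PMT1 and TN90 roots went past 2-fold in opposite directions at 13 genes, 2 higher and 11 lower in PMT1. The 6 with the largest difference were NITAB002358, named for limonene synthase (1.92 RPKM in topped and 0.00437 in untopped PMT1 roots, 0.0118 and 3.03 in TN90 roots), NITAB018296, which was listed at 0 in untopped PMT1 roots, NITAB097262, NITAB071867, a receptor-like protein with 290 and 596 RPKM in PMT1, NITAB028253 and the PMT gene NITAB068133. Apart from NITAB071867 and NITAB068133, the higher mean of each of them in PMT1 roots was at most 5.07 RPKM. Whether any of the 13 differ between genotypes beyond the spread of libraries was not tested.

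Genes near the limits show how much the counts rest on them. NITAB004594 was inside the upper limit at 2.004-fold and NITAB065294 outside it at 1.998-fold, and NITAB036301 was inside the lower limit at 2.002-fold lower and NITAB060801 outside it at 1.99-fold lower. At the minimum, NITAB048112 was kept with 1.01 RPKM in untopped roots and NITAB081152 was left out with 0.967 RPKM in topped roots. The 87 genes left out include 3 listed at 0 in both groups. Genes with a Swiss-Prot or tomato match had 24.2% higher and 4.06% lower of 1504, and genes without one 15.5% and 3.72% of 484.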

How the data were processed

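RNA was sequenced from topped and untopped PMT1 roots (total RNA, stranded libraries). The authors mapped reads with both the similarity and the length fraction set to 0.95, allowing a read 10 places, and deposited RPKM as group means for 2075 genes called at p of at most 0.05 and 2-fold. The authors ran that test inside their mapping software, which builds in the exact test of edgeR. A second deposited table gives read counts and the percent mapped and in gene models per library, with no sample names. Gene counts per library were not used here. Folds are log2((topped + 0.1)/(untopped + 0.1)), for genes of at least 1 RPKM in either group.

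Groups follow titles and treatment labels; a PMT2 sample with conflicting tissue labels was left unassigned, and it is not among the PMT1 roots. Tissue tags and descriptions of some samples of other genotypes conflict with their titles. Topping labels of some PMT2 and PMT3 leaf and root samples with the same title number conflict with each other, which is not so in PMT1. Genes named were the 35 candidates, the 15 largest increases and decreases of at least 5 RPKM, the 4 members of each described list with the largest absolute log2 fold, the 6 most opposite to TN90, the 5 highest in topped roots and called genes with identifiers next to a named gene; genes at the limits and NITAB068324 were named after their values were seen. Members and lists were chosen with earlier results of these data known, and some lists were narrowed or added after their members were seen. Names come from the deposited table, and 0 identifiers matched the RefSeq gene table. Library values were compared by exact permutation tests, whose p-values set the observed difference of means against those of all relabellings of these libraries. The code was tested on simulated data. Python 3.11.15, pandas 2.3.3, scipy 1.17.1, Biopython 1.88 and matplotlib 3.10.9 were used. Alternatives were other pseudocounts, minimums, fold thresholds and scalings, medians, weighting by reads and leaving out libraries.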

Additional observations from a re-analysis of the deposited data

How the results depend on the processing

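The count of PMT1 root genes past 2-fold on topping was 518, 439 higher and 79 lower, and 357 of the genes that were higher were so in TN90 roots as well. With a pseudocount of 1 RPKM these were 331, 291, 40 and 219, with a minimum of 5 RPKM 329, 292, 37 and 220, with a threshold of 1.5-fold 1161, 909, 252 and 840, and with 3-fold 202, 171, 31 and 113. Centring on the median log2 fold gave 208 higher, 284 lower and 94 higher in both genotypes, and scaling to equal sums over genes below 1000 RPKM, chosen after seeing the data, gave 285, 145 and 168. The candidates that were higher numbered 20 at 3-fold and 23 to 26 otherwise. No called value of a named gene changed its sign under these settings, but 42 of them were no longer past 2-fold after centring.

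For the libraries, leaving out each in turn moved the difference in mapped reads, topped minus untopped, between 0.552 and 2.42 percentage points, that in reads in gene models between -1.94 and 1.36 and that in read counts between -21.9 and -0.0583 M reads (M, 1000000), with p of at least 0.175. The difference in reads in gene models was 1.36 without the first untopped library, 0.0165 without the second and 0.827 without the fifth, 1.09 without the third topped library and 0.126 without the fifth, against -0.32 with all. No paired analysis was possible because topped and untopped PMT1 root samples carry different replicate numbers and gene values are group means. The spread between plants behind a gene value, and whether 1 library carries it, is therefore unknown.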
